A study of Mus musculus with 14 samples.

Results

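Heparan sulfate is a sulfated sugar chain carried by cell surface proteins. The genes described here are 36 mouse genes named by a fixed list of its core proteins, the enzymes that build and sulfate the chain, and the enzymes that edit or cut it. They were found by Entrez identifier in the comparisons of GLI1-induced with control cultures. Of the 36, 32 were among the 15108 genes tested at D5 (day 5 of differentiation) and 35 among the 15744 tested at D10, and 32 were tested on both days. Gpc5 was in neither table, and Ndst3, Hs3st2 and Hs6st3 were in the D10 table but not in the D5 table.

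Polyadenylated RNA came from mouse embryonic stem cells of the line GLI1-FTA, in the A2Lox.cre background, differentiated in culture toward neural cells. The A2Lox.cre background is built for transgene expression that depends on doxycycline, and all 4 groups share it. The D5 induced group had 500 ng/ml doxycycline for 48 hours, from day 3 to day 5, and holds 4 libraries, against 4 untreated control libraries harvested on the same day as neural progenitors. The D10 induced group had the same pulse followed by washout and was harvested 5 days later as immature neurons, with 3 libraries against 3 untreated ones. Doxycycline and GLI1 were given together, so their effects cannot be told apart. GLI1 is a transcriptional activator at the end of the Hedgehog pathway. The labels name 1 cell line and do not say whether libraries came from separate cultures, so p-values concern the spread between these libraries, which may be technical.

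The chain is started on a serine of the core protein through a short linker, which xylosyl-, galactosyl- and glucuronosyltransferases assemble. Exostosins then polymerise the chain, and N-deacetylase/N-sulfotransferases, an epimerase and O-sulfotransferases modify it in patches. Outside the cell, the endosulfatases Sulf1 and Sulf2 remove 6-O-sulfate groups from finished chains, which alters the binding of Hedgehog, Wnt and FGF ligands. In the ventral neural tube, Sulf1 is known as a gene of the floor plate region, where Sonic hedgehog is made.

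The values are the authors' comparisons, with no values per library used here, so the depth of each library is unknown. Each gene has a log2 fold change (induced over control), an average log2 CPM (counts scaled to a common library total) over the libraries of a day, a p-value and an adjusted p-value. An implied standard error (SE) and a 95% interval were derived here from the log2 fold change and its p-value. At D10, 1.53% of all genes had a p under 0.05, fewer than that threshold gives with no change. The intervals of that day may therefore be too wide. Levels in control and induced cultures were derived from the average CPM and the fold change, and are called implied CPM. They are group values with no spread between libraries. A gene is called higher or lower at an adjusted p under 0.05. Gli1 stood at a log2 fold change of 4.79 at D5 and 0.57 at D10 in the authors' deposited tables, the latter not called (adjusted p = 0.780). Whether its reads came from the transgene or from the cell's own gene cannot be told apart here.

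The labelled cell types were checked against marker genes. All 6 neural progenitor markers and all 6 neuron markers were in both tables, and the implied control sum of the progenitor list was 1122 CPM at D5 and 377 CPM at D10, while that of the neuron list was 706 and 1596 CPM. In induced cultures the progenitor sum was 1144 CPM at D5 and 453 CPM at D10, and the neuron sum 603 and 1626 CPM. Endoderm markers were present too, with an implied sum of 284 CPM in control and 227 CPM in induced cultures at D5, and 906 and 872 CPM at D10. Mesenchyme markers summed to 121 CPM in control and 77.5 CPM in induced cultures at D5, and to 395 and 382 CPM at D10. Of the 4 endothelium markers, Pecam1 and Tie1 were in neither table. Among 6 endoderm markers, Gata4 and Gata6 were called lower and Foxa2 higher at D5 in the authors' deposited table. Foxa2 thus moved against them, and whether it reflected endoderm in these cultures was not tested. Among 6 neuron markers Tubb3 and Stmn2 were called lower, and among 5 mesenchyme markers Pdgfra lower and Col3a1 higher. The D5 calls are 50% of the endoderm, 33.3% of the neuron and 40% of the mesenchyme list, beside 4.44% of all genes. None of the 32 cell type markers tested at D10 was called in the authors' deposited table, beside 0.0826% of all genes. For 32 genes, a count of 0 is near that share. In such cultures, fewer cells of a type and less RNA per cell cannot be told apart.

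While GLI1 was induced, a few heparan sulfate genes changed, in both directions and by less than 1.5-fold. At D5, the authors' deposited table called 2 of the 32 measured genes as higher and 2 as lower, and left 28 uncalled. The higher genes were the core proteins Gpc3 and Sdc3, and the lower ones were the core protein Sdc4 and the sulfotransferase Hs6st2. The 4 calls are 12.5% of the measured genes, beside 4.44% of all genes at D5, with 2.34% on the higher side and 2.1% on the lower. Before adjustment, 8 of 32 had a p under 0.05, or 25.0%, beside 10.7% of all genes. The median log2 fold change of the 32 genes was -0.018, beside 0.0015 over all genes, and the median size of the change without regard to sign was 0.13 beside 0.087. None of the 4 called genes reached a 1.5-fold change, and with Holm's stricter adjustment of the authors' p-values 0 were called. For 23 of the 31 measured genes with an interval, the 95% interval lay within 1.5-fold in either direction, and the same held for 70.5% of all genes.

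After washout, 1 heparan sulfate gene was called. At D10, the authors' deposited table called Sulf1 as higher, 0 genes as lower, and left 34 of 35 uncalled. That is 2.86% of the measured genes, beside 0.0826% of all genes at D10. Before adjustment, Sulf1 and Hs3st1 had a p under 0.05, which is 5.71% beside 1.53% of all genes. The median log2 fold change over the 35 genes was 0.0035, beside 0.0027 over all genes. The 95% interval lay within 1.5-fold for 26 of the 33 genes that have one, and for 73.8% of all genes.

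**Figure D1:**
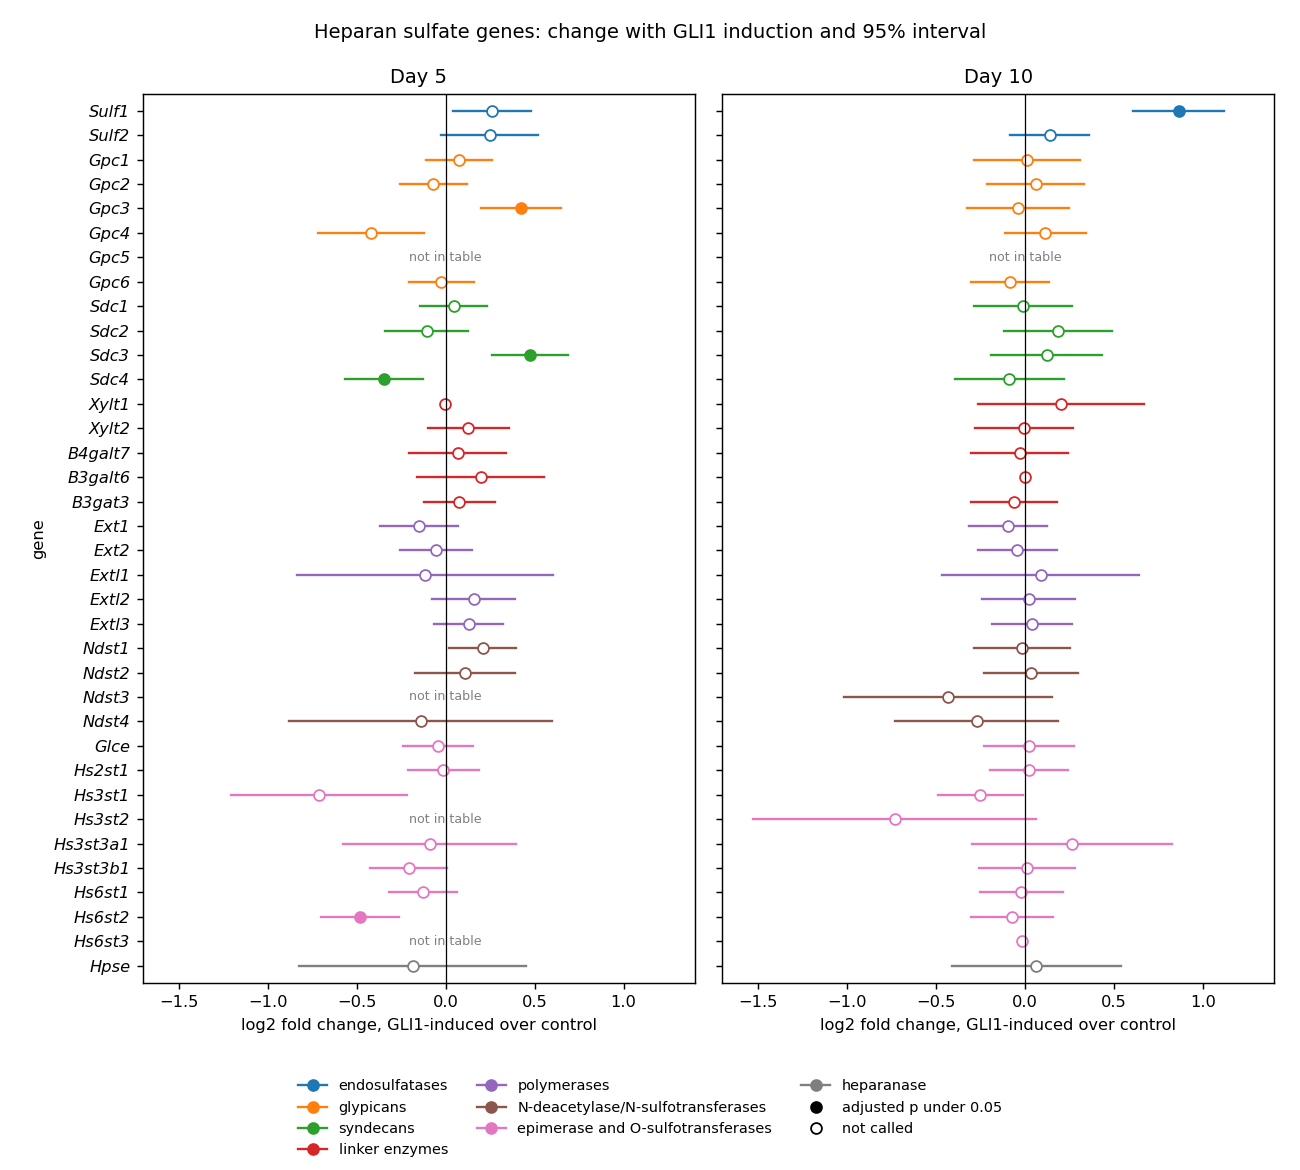
Log2 fold change (induced over control, horizontal axis) of each heparan sulfate gene (vertical axis, grouped by role in colour) at D5 and D10, with the 95% interval derived from the p-value as a line; filled points are called at an adjusted p under 0.05, and points with no line have a p of 1. The 4 filled points at D5 stand on both sides of 0 (Gpc3 and Sdc3 higher, Sdc4 and Hs6st2 lower), and Sulf1 alone is filled at D10, at 0.86.

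The endosulfatases come first, since they edit the finished chain. Sulf1 had an implied level of 120 CPM in control and 144 CPM in induced cultures at D5. At D10 its implied level was 81.6 CPM in control and 148 CPM in induced cultures. The implied control level was thus lower at D10 than at D5, and the induced levels of the days lay close together. In the authors' deposited table for D5, Sulf1 had a log2 fold change of 0.26 and was not called (adjusted p = 0.265, 95% interval 0.04 to 0.48). In the authors' deposited table for D10, Sulf1 was 1.82-fold higher (log2 fold change 0.86, adjusted p = 1.06e-07, implied SE 0.13). It had the third smallest p of all genes on that day, and its 95% interval ran from 0.61 to 1.12.

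The change in Sulf1 was larger at D10 than at D5 by 0.60 on the log2 scale, as computed from the authors' tables (95% interval 0.27 to 0.94, adjusted p = 0.0356). The test sets the days' log2 fold changes against their implied SEs and was adjusted over all 14792 genes in both tables, of which 1.24% differed. Of the 32 heparan sulfate genes in both tables, Sulf1 alone was called in it, and 4 had a p under 0.05 before adjustment, or 12.5% beside 4.91% of all genes. With a t reference in place of a normal one, the adjusted p was 0.0831 and the call was lost. The days share no libraries. At D10, all 6 neural progenitor markers also had a log2 fold change above 0 (median 0.20), beside 51.1% of all genes above 0. The authors' deposited table called 0 of them at D10, and 1, Nes, had a p under 0.05 before adjustment (p = 0.0250). Their part in the D10 value of Sulf1 was not tested.

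Sulf2, the other endosulfatase, had an implied level of 256 CPM in control and 304 CPM in induced cultures at D5, and 220 and 243 CPM at D10. Its log2 fold change was 0.25 at D5 and 0.14 at D10 in the authors' deposited tables, and neither was called (adjusted p = 0.592 and 1). The 95% interval was -0.026 to 0.52 at D5 and -0.09 to 0.36 at D10. Sulf1 and Sulf2 thus had nearly equal values at D5, and their intervals at D10 did not overlap.

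**Figure D2:**
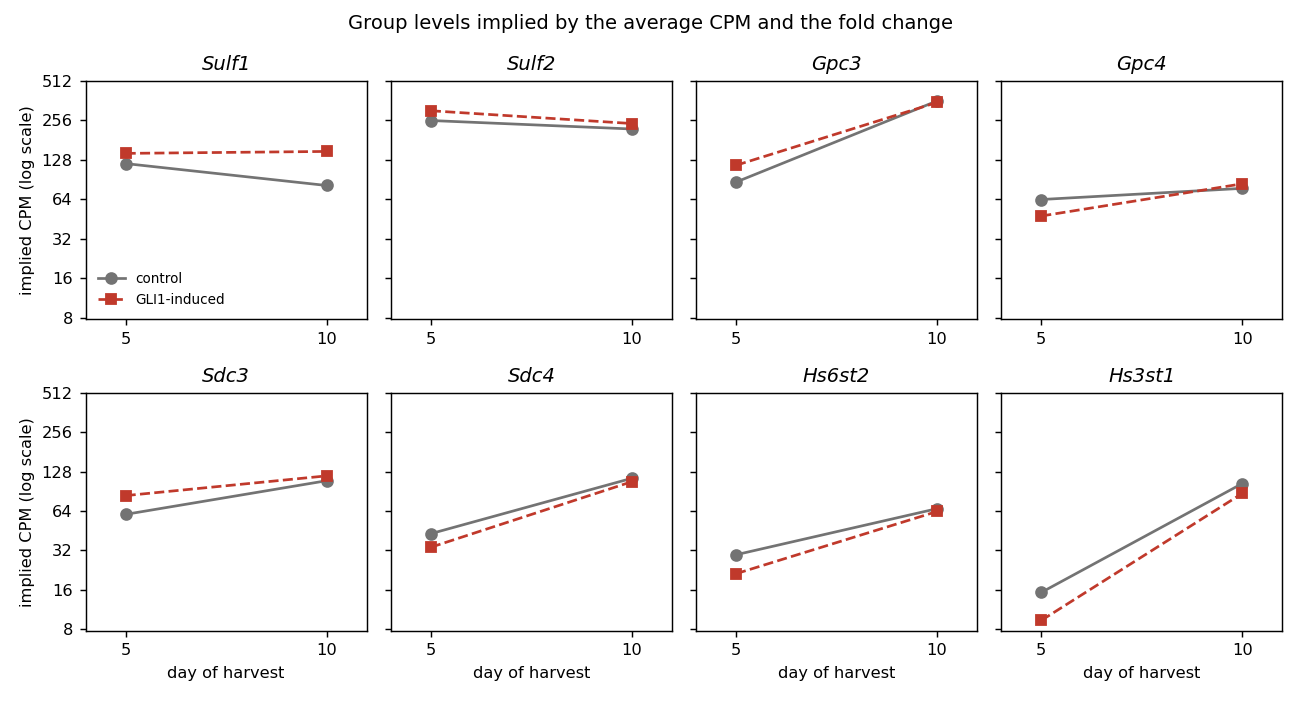
Implied CPM (vertical axis, log scale) of 8 heparan sulfate genes on the day of harvest (horizontal axis) in control (grey circles) and GLI1-induced cultures (red squares); each point is a group value with no spread shown, and lines join groups of the same treatment. For Sulf1 the gap between the groups is wider at D10 (81.6 against 148 CPM) than at D5, while for Gpc3 the groups meet at D10 near 361 and 352 CPM.

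Glypicans are core proteins held in the membrane by a lipid anchor. Gpc3, a glypican that binds Hedgehog ligands and is known to restrain the pathway, had an implied level of 86.7 CPM in control and 116 CPM in induced cultures at D5. It was 1.34-fold higher at D5, with a log2 fold change of 0.43 and an adjusted p of 0.00781 by the authors' deposited table (implied SE 0.12). At D10 its implied levels were 361 and 352 CPM, and its log2 fold change in the authors' deposited table was -0.04 (adjusted p = 1). The difference between the days computed from the authors' tables was -0.46 (95% interval -0.83 to -0.10) and did not pass (adjusted p = 0.453).

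Gpc4, the coding gene next to Gpc3 on chromosome X in the RefSeq order of GRCm38.p6, stood on the other side of 0. Its implied level was 63.8 CPM in control and 47.7 CPM in induced cultures at D5, with a log2 fold change of -0.42 in the authors' deposited table that was not called (adjusted p = 0.105, 95% interval -0.72 to -0.12). The D5 intervals of Gpc3 and Gpc4 did not overlap. At D10, Gpc4 stood at 0.12 in the authors' deposited table, and the difference between the days, 0.53, did not pass (adjusted p = 0.264). The remaining measured glypicans had log2 fold changes near 0 in the authors' deposited tables. Gpc1 stood at 0.08 at D5 and 0.012 at D10, Gpc2 at -0.07 and 0.06, and Gpc6 at -0.024 and -0.08. Gpc2 shares 49.7% of its 50-base stretches, the read length, with other genes, most with Gm43720, and Gpc1 shares 18%, most with Ankmy1, so the counts of these glypicans are uncertain.

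Syndecans are core proteins with a transmembrane domain. Sdc3, the syndecan best known from nervous tissue, had an implied level of 60.3 CPM in control and 83.8 CPM in induced cultures at D5. It was 1.39-fold higher at D5, with a log2 fold change of 0.48 and an adjusted p of 0.000709 by the authors' deposited table (implied SE 0.11). Among the heparan sulfate genes it had the smallest p at D5. At D10 the implied levels were 109 and 119 CPM, with a log2 fold change of 0.12 in the authors' deposited table (adjusted p = 1), and the difference between the days was not called (adjusted p = 1). Sdc3 shares 5.36% of its 50-base stretches with other genes, most with Gm26716, which lies on the opposite strand.

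The window around the Sdc3 start is shown because, of the 27 heparan sulfate genes with promoter windows in the RefSeq table (GRCm38.p6), it alone holds the core of the motif that GLI factors bind. The 9-letter consensus GACCACCCA, searched on both strands from 250 bases before to 50 after each start, was in 0 of 31 windows of these genes and in 0.253% of all 32851 windows. Its inner letters ACCACCC, which lie within the consensus, were in 1 of the 31 windows and in 4.61% of all windows. For 31 windows, a count of 1 is near that share. In the Sdc3 window they begin 241 bases before the start, on the strand of the gene. The 250 bases before that start are at chr4:130792287-130792536, plus strand, with the motif in capitals. A match of letters is no evidence of binding, and no window for Sulf1 was used here.
Sdc3: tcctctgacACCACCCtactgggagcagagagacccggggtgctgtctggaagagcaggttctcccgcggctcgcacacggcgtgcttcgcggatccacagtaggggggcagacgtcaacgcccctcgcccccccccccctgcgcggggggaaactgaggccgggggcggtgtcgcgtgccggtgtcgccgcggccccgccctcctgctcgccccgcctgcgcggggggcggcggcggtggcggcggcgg

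Sdc4, a widely expressed syndecan of focal adhesions, moved the other way. Its implied level was 42.9 CPM in control and 33.8 CPM in induced cultures at D5. It was 1.27-fold lower at D5, with a log2 fold change of -0.34 and an adjusted p of 0.0469 by the authors' deposited table (implied SE 0.11). Sdc4 lies just inside the threshold, and Hs3st1, at an adjusted p of 0.0939, is the nearest heparan sulfate gene outside it. At D10, Sdc4 stood at -0.09 in the authors' deposited table and was not called (adjusted p = 1). Sdc1 and Sdc2 stood at 0.04 and -0.11 at D5 and at -0.011 and 0.19 at D10 in the authors' deposited tables, with 0 of these values called. The measured syndecans thus included 1 call in each direction at D5 and 0 calls at D10, where 0 had a p under 0.05 before adjustment. The D5 calls are 50% of the 4 syndecans, beside 4.44% of all genes.

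The enzymes that start and extend the chain held 0 calls on either day, and 0 of these 10 genes had a p under 0.05 before adjustment. Over all genes, 4.44% were called and 10.7% had such a p at D5, and 0.0826% and 1.53% at D10. For 10 genes, a count of 0 is near those shares. All 5 linker enzymes were measured, and their log2 fold changes ran from -0.0028 to 0.20 at D5 and from -0.06 to 0.20 at D10 in the authors' deposited tables. Xylt2, a xylosyltransferase that starts the linker, had the smallest D5 p among them and an implied level of 21.7 CPM in control and 23.7 CPM in induced cultures. Its log2 fold change was 0.13 at D5 (p = 0.273, adjusted p = 0.998) and -0.0065 at D10 in the authors' deposited tables. B3galt6, which adds the second galactose, stood at 0.20 at D5 with an interval of -0.16 to 0.56. B4galt7, which adds the first galactose, stood at 0.07 at D5 and -0.029 at D10, and B3gat3, which adds the glucuronic acid, at 0.08 and -0.06 in the authors' deposited tables. Xylt1, the other xylosyltransferase, stood at -0.0028 at D5 with a p of 1. For each of the 4 linker enzymes with an interval at D5, that interval lay within 1.5-fold.

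All 5 exostosins were measured, and their log2 fold changes ran from -0.15 to 0.16 at D5 and from -0.09 to 0.09 at D10 in the authors' deposited tables. Ext1 and Ext2, which together form the polymerase, stood at -0.15 and -0.05 at D5 in the authors' deposited table (adjusted p = 0.875 and 1). Their D5 intervals were -0.37 to 0.07 and -0.25 to 0.15. Extl2, which can end a chain early, had the smallest D5 p of the exostosins in the authors' deposited table (p = 0.180, adjusted p = 0.871). Its log2 fold change there was 0.16, and its implied level was 20.5 CPM in control and 22.9 CPM in induced cultures. At D10 it stood at 0.021. Extl3, which starts the chain on the linker, stood at 0.13 at D5 and 0.04 at D10 in the authors' deposited tables. Extl1 was the least precise, with a D5 interval of -0.83 to 0.60 at an average log2 CPM of 0.39 in the authors' deposited table.

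N-sulfation is the first sulfation step, and its enzymes held 0 calls, with 1 of 3 at a p under 0.05 before adjustment at D5 and 0 of 4 at D10. Over all genes, 10.7% had such a p at D5 and 1.53% at D10. Ndst1, which does most N-sulfation in many tissues, had an implied level of 84.1 CPM in control and 97.2 CPM in induced cultures at D5. Its log2 fold change at D5 was 0.21 in the authors' deposited table and was not called (p = 0.0310, adjusted p = 0.347). At D10 it stood at -0.018 in the authors' deposited table. Ndst2 stood at 0.11 and 0.04, and Ndst4 at -0.14 and -0.27 in the authors' deposited tables. Ndst3, tested at D10 alone, stood at -0.43 there with an interval of -1.01 to 0.15.

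All 7 measured genes for the epimerase and the O-sulfotransferases had a negative log2 fold change at D5 in the authors' deposited table, beside 50.5% of all genes above 0. Of the 7, 1 was called, or 14.3% beside 4.44% of all genes. That gene was Hs6st2, a 6-O-sulfotransferase, which adds the sulfate group that the endosulfatases remove. Its implied level was 29.7 CPM in control and 21.3 CPM in induced cultures at D5. It was 1.4-fold lower at D5, with a log2 fold change of -0.48 and an adjusted p of 0.00102 by the authors' deposited table (implied SE 0.11). At D10 its implied levels were 66.7 and 63.4 CPM, with a log2 fold change of -0.07 in the authors' deposited table (adjusted p = 1). The difference between the days for Hs6st2, from the authors' tables, was 0.41 (95% interval 0.09 to 0.73) and did not pass (adjusted p = 0.428). The related Hs6st1 stood at -0.13 at D5 and -0.020 at D10 in the authors' deposited tables and was not called. Hs6st2 lies near Gpc4 on chromosome X in the RefSeq order, with 2 coding genes between them.

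Hs3st1, a 3-O-sulfotransferase known for making the antithrombin-binding site of heparin, had the lowest log2 fold change of the heparan sulfate genes at D5 and was not called. Its implied level at D5 was 15.3 CPM in control and 9.35 CPM in induced cultures, with a log2 fold change of -0.71 in the authors' deposited table (adjusted p = 0.0939, 95% interval -1.20 to -0.22). At D10 its implied levels were 104 and 87.1 CPM, with a log2 fold change of -0.25 in the authors' deposited table (p = 0.0399, adjusted p = 1). The difference between the days was 0.46 with an interval of -0.09 to 1.01, which includes 0. The endoderm, mesenchyme and neuron marker sums given above were also lower in induced than in control cultures at D5. Before adjustment, 4 of 6 neuron markers had a p under 0.05, or 66.7% beside 10.7% of all genes. Among them, Rbfox3 was on the higher side (log2 fold change 0.53). Of the 6 endoderm markers, Foxa2 and Afp were above 0 (1.37 and 0.86) and 4 below. Of the 5 mesenchyme markers, Col3a1 and Twist1 were above 0 (1.55 and 0.014) and 3 below. Pdgfra had the highest average log2 CPM of the mesenchyme list at D5 (6.35), so it carries much of that sum. The part of these marker changes in the lower values of Hs3st1, Hs6st2, Sdc4 and Gpc4 was not tested.

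The other modifying enzymes were not called on either day. Hs2st1, which sulfates the uronic acid, stood at -0.012 at D5 and 0.023 at D10, and the epimerase Glce at -0.04 and 0.024, in the authors' deposited tables. Hs3st3b1 stood at -0.21 at D5 (p = 0.0587) and 0.012 at D10 in the authors' deposited tables. Hs3st3a1 stood at -0.09 and 0.27 in the authors' deposited tables. It shares 42.8% of its 50-base stretches with other genes, most with F930015N05Rik, and some with Hs3st3b1, so its counts are uncertain. Hs3st3b1 shares 8.56% of its stretches with other genes, most with Hs3st3a1, so its counts are less certain too. Hs3st2 and Hs6st3 were tested at D10 alone, at average log2 CPM values of -0.41 and -0.32 in the authors' deposited table, and log2 fold changes of -0.73 and -0.018. The interval of Hs3st2 ran from -1.52 to 0.06. Heparanase (Hpse), which cuts the chain, stood at -0.19 at D5 and 0.06 at D10 in the authors' deposited tables, with a D5 interval of -0.83 to 0.45.

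Genes around the heparan sulfate pathway were read from lists for precursor supply, other carriers of the chain, lysosomal breakdown and the sister chain chondroitin sulfate. Of 13 genes for precursors and the linker's phosphate, the authors' deposited table called 2 as higher and 0 as lower at D5. The calls are 15.4% of that list, beside 4.44% of all genes. Pxylp1, the phosphatase that removes a phosphate from the linker's xylose, had an implied level of 8.44 CPM in control and 17.0 CPM in induced cultures. It was 2.02-fold higher at D5, with a log2 fold change of 1.01 and an adjusted p of 3.29e-10 by the authors' deposited table (implied SE 0.14) and stood at 0.14 at D10, not called. Slc35d2, a transporter of nucleotide sugars into the Golgi, was 2.57-fold higher at D5, with a log2 fold change of 1.36 and an adjusted p of 0.000209 by the authors' deposited table. Its implied level at D5 was low, at 1.90 CPM in control and 4.87 CPM in induced cultures. At D10 it stood at -0.23, not called. The difference between the days from the authors' tables was called for Slc35d2 (-1.59, adjusted p = 0.00131) and missed the threshold for Pxylp1 (-0.88, adjusted p = 0.0589). At D5, the log2 fold changes of Slc35d2 and Pxylp1 were above those of each of the 32 heparan sulfate genes measured.

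Of 9 other proteoglycans that can carry the chain, the authors' deposited table called 1 as higher and 1 as lower at D5. These calls are 22.2% of the list, beside 4.44% of all genes. Col18a1, a basement membrane collagen, had an implied level of 149 CPM in control and 352 CPM in induced cultures. It was 2.37-fold higher at D5, with a log2 fold change of 1.24 and an adjusted p of 1.34e-28 by the authors' deposited table and stood at -0.0011 at D10. Spock1, a testican of the brain, was 1.59-fold lower at D5, with a log2 fold change of -0.67 and an adjusted p of 0.00294 by the authors' deposited table. The basement membrane proteoglycans Hspg2 and Agrn stood at -0.36 and 0.0081 at D5 in the authors' deposited table and were not called.

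The 9 genes of the lysosomal breakdown list held 0 calls on either day in the authors' deposited tables. Their median log2 fold change was -0.019 at D5, with 0 genes at a p under 0.05 before adjustment. Over all genes at D5, 4.44% were called and 10.7% had such a p, and 0.0826% were called at D10. For 9 genes, a count of 0 is near those shares. Of the 15 measured chondroitin and dermatan sulfate genes, 0 were called at D5 in the authors' deposited table. Before adjustment, 7 had a p under 0.05, or 46.7% beside 10.7% of all genes. The nearest to a call was Chst11, at a log2 fold change of 0.43 and an adjusted p of 0.0569 in the authors' deposited table. Of 11 measured Hedgehog ligands and surface partners, the authors' deposited table called 4 as higher and 3 as lower at D5. That is 63.6%, beside 4.44% of all genes. The called genes with the smallest p were Hhip, Ptch1 and Shh, all higher, and the co-receptor Boc, which was lower (log2 fold changes 5.31, 1.82, 3.70 and -0.40). At D10, Shh was the single call in this list and in all of these lists (log2 fold change 1.41, adjusted p = 3.21e-13) in the authors' deposited table. Before adjustment, 3 of the 11 had a p under 0.05 at D10, or 27.3% beside 1.53% of all genes. They were Shh, Hhip (log2 fold change 0.55) and Gas1 (-0.31). Of 5 further relatives of the heparan sulfate genes, Hs3st4 was measured at D5 and was not called.

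**Figure D3:**
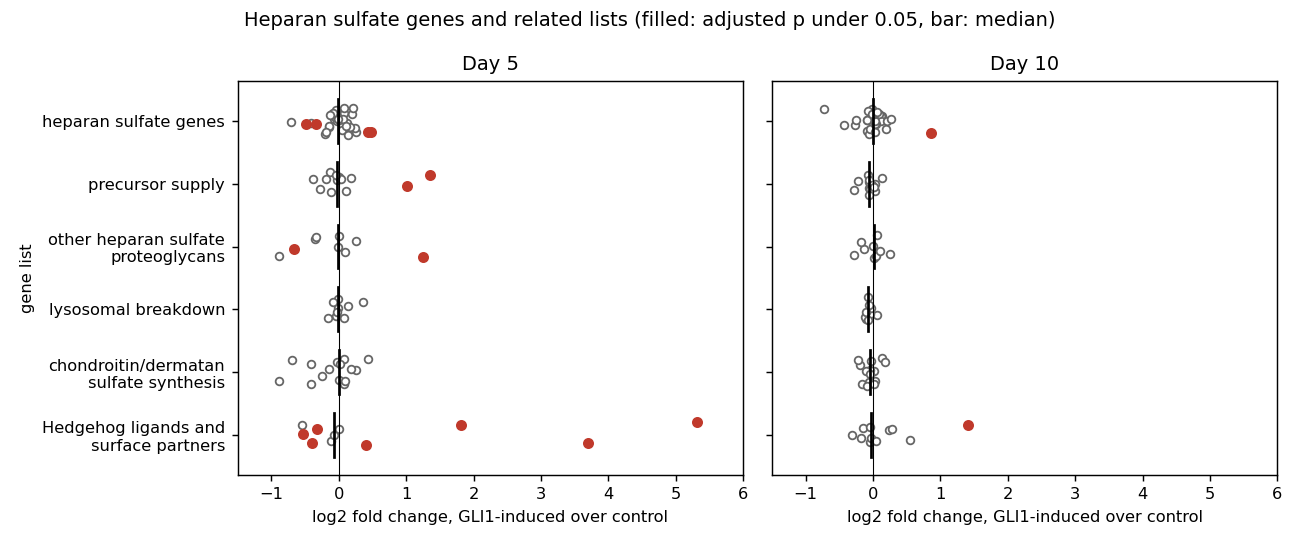
Log2 fold change (induced over control, horizontal axis) of each gene in the heparan sulfate set and 5 related lists (vertical axis) at D5 and D10; filled red points are called at an adjusted p under 0.05 and the black bar is the list's median. The called heparan sulfate genes lie between -0.48 and 0.48 at D5, while Pxylp1, Slc35d2, Col18a1 and 3 Hedgehog genes lie above 1.

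Several heparan sulfate genes stood at different levels on the 2 days. In control cultures, 7 of the 32 genes measured on both days had an implied level at least 2-fold higher at D10 than at D5, and 3 at least 2-fold lower. These are 21.9% and 9.38% of the genes, beside 12.4% and 5.98% of all genes. The groups of the days were compared by the authors separately, no test was made, and the median log2 ratio over all genes was 0.013. CPM is not per length, so levels are compared within a gene.

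Hs3st1 had the largest ratio, from 15.3 to 104 CPM or 6.78-fold. Gpc3 went from 86.7 to 361 CPM or 4.16-fold, Extl1 3.24-fold from 1.36 CPM, Hpse 3.0-fold from 1.75 CPM, Sdc4 2.65-fold, Ndst4 2.47-fold from 1.36 CPM and Hs6st2 2.25-fold. On the lower side, Hs3st3b1 went from 85.7 to 28.3 CPM or 3.02-fold lower, Hs3st3a1 was 2.46-fold lower and Sdc1 2.06-fold lower. The 3-O-sulfotransferases thus stood on both sides. The marker sums of neurons, endoderm and mesenchyme were also higher at D10 in these control cultures, and that of progenitors was lower. The mesenchyme marker Twist1 went the other way from its list, with an average log2 CPM of 3.50 at D5 and 2.55 at D10. The part of these cell types in the ratios above was not tested. The polymerase genes Ext1 and Ext2 had ratios of 1.32 and 1.43. Sulf1 and Sulf2 were 1.47-fold and 1.16-fold lower at D10 in control cultures.

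**Figure D4:**
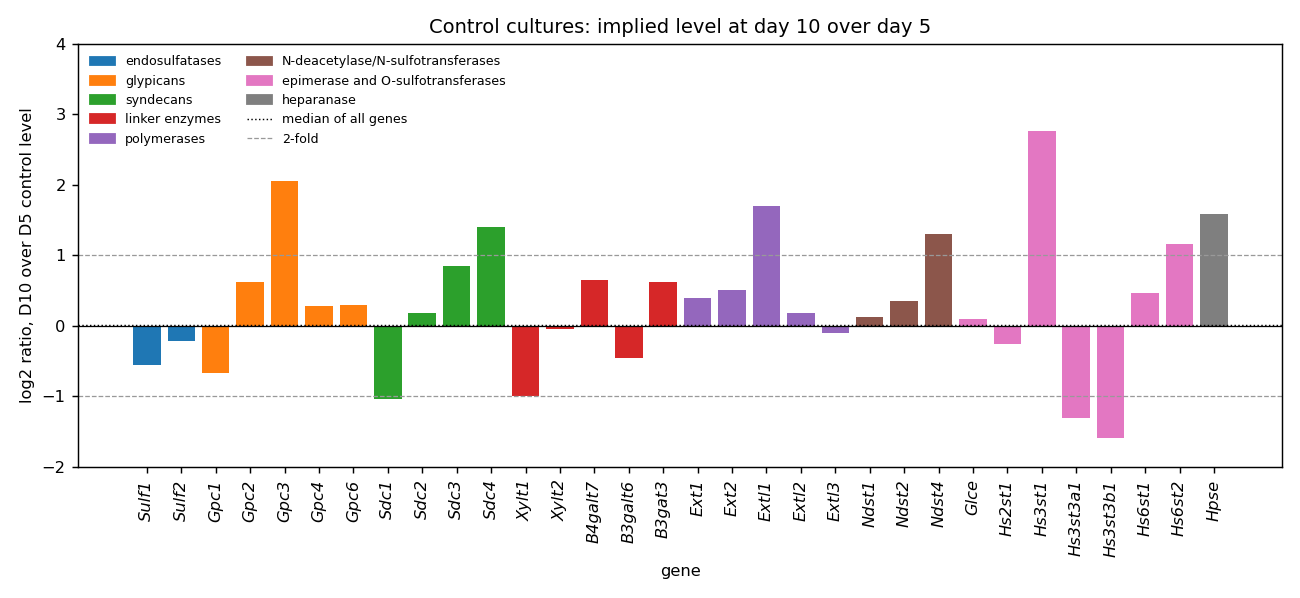
Log2 ratio of the implied control level at D10 over D5 (vertical axis) for the 32 heparan sulfate genes in both tables (horizontal axis, coloured by role); each bar is a single ratio of group values with no error, the dotted line is the median of all genes and dashed lines mark 2-fold. Hs3st1 stands highest at 2.76 and Hs3st3b1 lowest at -1.60.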

How the data were processed

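Libraries of 14 samples were grouped by title. The reads are described as stranded and single-end in the labels' protocols. The aligner, the counting and its use of strand, the filter, the test and the build were not given in the sources used here. Counts of genes with antisense or overlapping partners are therefore uncertain. Per the file headers, each Entrez gene has the authors' log fold change, average log CPM, p-value and FDR, which carry no base. Read as log2 values, the average CPM sum to 1001543 at D5 and 1001340 at D10, and the authors' fold change was taken as log2 too. Recomputing Benjamini-Hochberg values from the deposited p-values gave the authors' FDR within 3.41e-05.

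Symbols came from the selected tables and RefSeq (GRCm38.p6), which matched 94.6% of identifiers at either day, and all 36 listed genes. The implied SE is the size of the log2 fold change over the size of z, from the p-value. Over all genes, the median size of z was 0.62 at D5 and 0.41 at D10, below that of a standard normal. The p-values thus ran large, more so at D10, and the implied SEs and intervals may be too wide. The control CPM is 2 times the average CPM over 1 plus the fold, and control and induced CPM sum to 1002551 and 1000534 at D5. It is approximate, since the way the authors averaged CPM is not given. The days' difference was tested against a normal reference, two-sided, with Benjamini-Hochberg adjustment over 14792 genes, and genes with no finite SE were entered as no difference. That procedure was run on simulated data drawn from a normal distribution. Such data cannot show whether a normal reference suits the authors' p-values. Shared 50-base stretches were counted in GENCODE M21 transcripts. Named are all listed genes, in full where called or with the smallest D5 p of a role, and called genes of the related lists, up to 4 a list. Values for other genes were given after they were seen. A gene of a related list is not reported here. The members, lists and tests were chosen with earlier results of these data known. Python 3.11.15, scipy 1.17.1 and matplotlib 3.10.9 were used.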

Additional observations from a re-analysis of the deposited data

Results flagged for a closer look

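The change in Sulf1 differed between the days, by 0.60 on the log2 scale (D10 minus D5), as tested on the difference itself with implied SEs. It went from 0.26 to 0.86 in the authors' deposited tables, with an adjusted p of the difference of 0.0356. Of the 32 heparan sulfate genes in both tables, 4 had an unadjusted p under 0.05 in that test (Sulf1, Gpc4, Hs6st2 and Gpc3), or 12.5% beside 4.91% of all genes.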

How the results depend on the processing

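At D5 the count of 4 heparan sulfate genes was 0 when a 1.5-fold change was also asked for, and 0 with Holm's adjustment, where the smallest values were 0.187 for Sdc3 and 0.283 for Hs6st2. It ran from 3 to 6 in the other 5 alternatives, with Sdc4 lost at an adjusted p under 0.01, Hs3st1 gained under 0.1, and Sulf1 and Sulf2 gained with z rescaled within expression bins of about 500 genes. At D10 the count of 1 became 2 with rescaled z of the authors' p-values, adding Hs3st1 (adjusted p = 0.00711). The days differed for 0 genes at an adjusted p under 0.01, 0 with a t reference and 4 with rescaled z (Sulf1, Gpc3, Gpc4 and Hs6st2), in place of 1. The cause was not tested. Rescaling assumes that most genes of a bin did not change. The median shift of the average log2 CPM from D5 to D10 was 0.32, and 0.31 after centring on all genes. Sulf1 kept its call at D10 in all 7 alternatives. No paired analysis was possible because no values per library were used here, and for the same reason no replicate was left out.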
